A study of Mus musculus with 8 samples.

Results

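The proteasome genes were examined here in peak lists from ChIP-seq, which sequences the DNA that crosslinks to an immunoprecipitated protein. They were taken by symbol from the RefSeq genes of the mm10 build (GRCm38.p6), as protein-coding genes named Psma, Psmb, Psmc or Psmd and a number. This gave 39 of 21887 protein-coding genes, of which 19 are named for the core particle (Psma and Psmb) and 20 for the regulatory particle (Psmc and Psmd), 3 of the 20 being genes of assembly chaperones. Psmc3ip, which encodes a protein of meiotic recombination that binds Psmc3, matches the letters of the rule as a fortieth symbol and is not counted among the 39. Libraries were made from primary neural progenitor cells of the hippocampus of male C57BL/6 mice, fixed with 1% formaldehyde for 10 minutes, with no treatment or genotype stated. The ChIP targets were Mgea5, Panx2 and Polr1c, with 2 replicates each, and input chromatin was sampled with 2 libraries, which makes 8 samples. The input was not analysed here, and the labels state neither the animals' age nor how many stood behind a culture. Nothing in the labels says that the replicates were separate cultures, so differences between them may be technical, and peak lists cannot check the labelled cell type.

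The proteasome is the protease that degrades ubiquitin-tagged proteins in the cytosol and nucleus. Its core particle is a barrel of alpha rings (Psma genes), which gate the entrance, and beta rings (Psmb genes), which hold the active sites. The regulatory particle binds the ubiquitin chain, removes it and unfolds the substrate with a ring of ATPases (Psmc genes) and a set of other subunits (Psmd genes). Neural progenitors, like other dividing cells, depend on it for the turnover of cell cycle and fate regulators. Mgea5 is the enzyme that removes the sugar O-GlcNAc from proteins, and subunits of the regulatory particle are among the proteins known to carry O-GlcNAc. Panx2 is a pannexin, a family of membrane channel proteins, and Polr1c is a subunit common to RNA polymerases I and III. Peaks at proteasome genes therefore concern where chromatin may have been recovered with each protein, and not how much of a subunit the cells made. A weak listed peak does not by itself show such recovery.

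The promoter sequences shown first are those of proteasome genes over which a single protein had a peak in both replicates, with the highest folds. They are the 250 bases before an annotated start, read 5′ to 3′ from the RefSeq promoter table of GRCm38.p6, which held 34 promoters of 32 of the 39 genes. Capitals mark matches, on either strand, to CCGGAAG (ETS factors), CCAAT, or TATAAA (the TATA box). The Psma6 promoter (chr12:55398575-55398824, plus strand) belongs to the second annotated start of this alpha subunit gene, 14603 bp inside the gene and so outside the 1 kb windows used for gene ends. Psmc1 (chr12:100109952-100110201, plus strand) and Psmc2 (chr5:21785025-21785274, plus strand) encode ATPases of the regulatory particle. Psmd1 (chr1:86064369-86064618, plus strand) encodes a large scaffold subunit of its base.
Psma6: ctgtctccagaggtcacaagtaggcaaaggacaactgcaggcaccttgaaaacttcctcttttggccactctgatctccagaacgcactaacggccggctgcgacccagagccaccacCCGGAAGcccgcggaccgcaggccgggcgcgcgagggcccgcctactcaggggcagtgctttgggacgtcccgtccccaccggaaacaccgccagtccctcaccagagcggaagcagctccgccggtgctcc
Psmc1: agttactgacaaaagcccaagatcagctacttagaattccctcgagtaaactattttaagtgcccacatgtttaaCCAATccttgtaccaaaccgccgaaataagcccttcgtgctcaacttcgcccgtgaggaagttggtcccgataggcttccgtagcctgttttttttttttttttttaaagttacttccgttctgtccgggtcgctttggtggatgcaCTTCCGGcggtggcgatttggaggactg
Psmc2: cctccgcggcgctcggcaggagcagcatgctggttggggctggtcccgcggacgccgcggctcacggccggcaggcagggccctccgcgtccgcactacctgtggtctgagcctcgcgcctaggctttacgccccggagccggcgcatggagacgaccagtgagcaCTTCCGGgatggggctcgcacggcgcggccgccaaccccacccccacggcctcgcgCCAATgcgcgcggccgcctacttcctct
Psmd1: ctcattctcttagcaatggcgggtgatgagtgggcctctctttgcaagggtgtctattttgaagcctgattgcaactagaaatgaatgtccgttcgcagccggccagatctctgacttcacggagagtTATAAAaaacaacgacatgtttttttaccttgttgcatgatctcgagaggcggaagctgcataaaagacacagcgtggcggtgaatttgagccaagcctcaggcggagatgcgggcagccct

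Mgea5 peaks over the 300 base promoter, counted to 50 bases past the start, had folds of 2.72 and 1.83 at Psma6, 1.84 and 1.98 at Psmc1, and 1.65 and 2.14 at Psmc2, in replicates 1 and 2. The Panx2 peaks over the Psmd1 promoter had folds of 1.76 and 2.05. Fold is the authors' deposited enrichment of ChIP over background for a peak, so a value of 1 would be no enrichment. Mgea5 peaks of both replicates overlapped 9 of the 34 proteasome gene promoters (26.5%), against 12.8% of the 21263 promoters of protein-coding genes in the table. Both annotated promoters of Psmc2 were among the 9, so these came from fewer genes. Panx2 peaks did so at 1 of 34 (2.94%), against 1.48%, and Polr1c peaks at 0 of 34, against 0.306%.

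Letters of the ETS motif CCGGAAG were present in 11 of the 34 proteasome promoters (32.4%), from 10 genes, and in 11.6% of all promoters. The 10 genes were Psma6 of the core and Psmc1, Psmc2, Psmc6, Psmd2, Psmd4, Psmd6, Psmd11, Psmd12 and Psmd13 of the regulatory particle. The element TGACTCAGC, bound by Nfe2l1 and Nfe2l2, the factors known to induce proteasome genes, was in 0 of 34 windows and in 0.414% of all promoters. Its looser form TGANNNNGC, which overlaps it, was in 20 of 34 (58.8%), against 41.7%. GGGCGG (Sp1) was in 19 (55.9% against 46.2%), CCAAT in 13 (38.2% and 38.2%), and TATAAA in 4 (11.8% against 12.6%). AAGATGGCG (YY1) was in 2, at Psmb6 and Psmc5 (5.88% against 1.83%), and GCGCATGCG (nuclear respiratory factor 1) in 1, at Psma2 (2.94% against 2.35%). GTTCNANNC, the letters of the B box of RNA polymerase III genes, was in 4 windows (11.8% against 8.43%). Both strands were searched for each motif, and no test was made of these shares. The proteasome promoters had a median GC content of 56.2%, against 56.3% over all protein-coding genes with a promoter, and a median of 19 CpG sites, against 13.

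Most listed peaks were weak, and the lists differed in length. The 6 lists held between 826 peaks (Polr1c replicate 1) and 536877 peaks (Mgea5 replicate 1), and the lowest −log10 p was 1 in the Mgea5 and Panx2 lists and 2 in the Polr1c lists. Among peaks on the main chromosomes, which were 785 of the 826 in the shortest list, a q of at most 0.01 was reached by 0.0201% and 0.0209% of the Mgea5 peaks, 0.00758% and 0.0772% of the Panx2 peaks, and 27.5% and 3.75% of the Polr1c peaks. A gene was counted for a list when a peak overlapped by at least 1 bp the window of 1000 bp around either of its ends. At this setting 34 and 35 proteasome genes counted in the Mgea5 lists, against 81.2% and 71.2% of all protein-coding genes, 11 and 36 in the Panx2 lists, against 23.5% and 82.1%, and 2 and 9 in the Polr1c lists, against 0.594% and 17.5%. The peak names of Panx2 replicate 1 and Polr1c replicate 1 carry one output directory and those of the other lists another, so replicate and calling run cannot be told apart for these proteins.

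**Figure D1:**
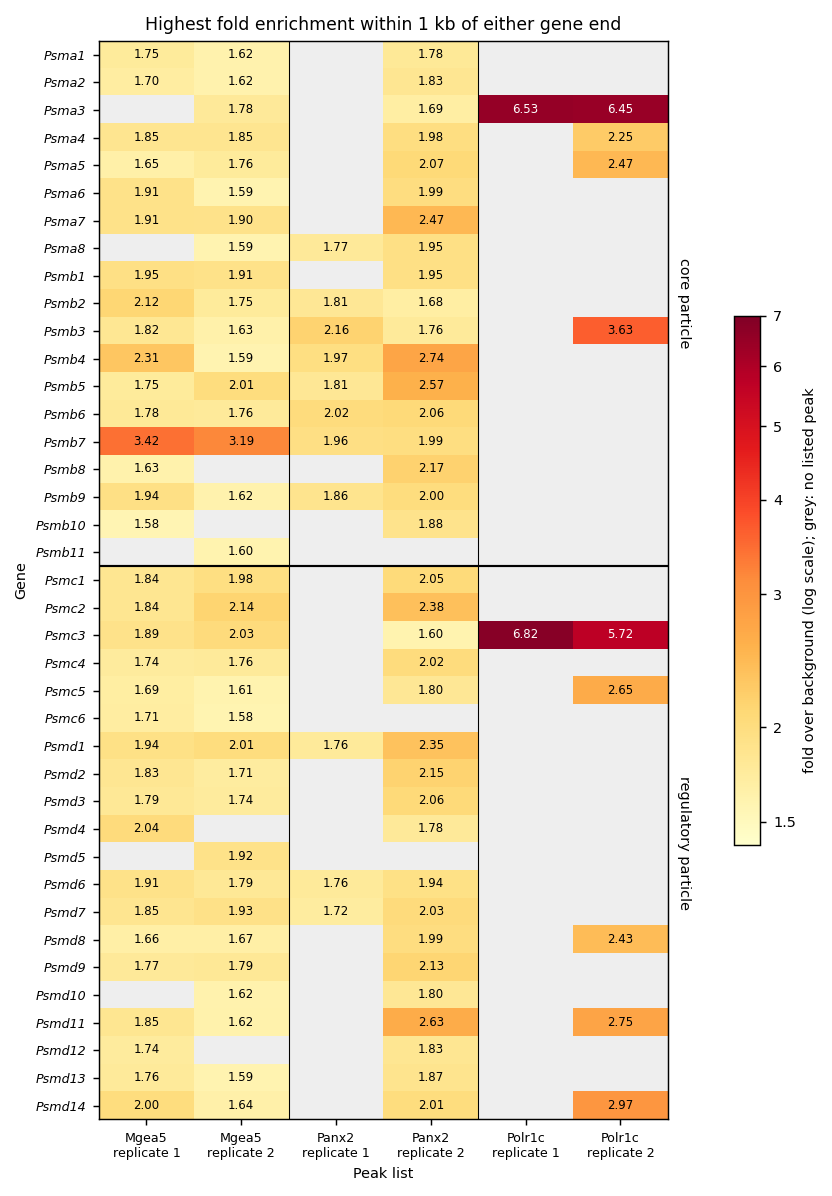
Highest deposited fold within 1 kb of either end of each of the 39 proteasome genes (rows, core above regulatory particle) in each of the 6 peak lists (columns); grey cells have no listed peak. Psmb7 stands out in the Mgea5 columns (3.42 and 3.19), and Psma3 and Psmc3 are filled in both Polr1c columns.

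Every proteasome gene had a peak in at least 1 list, and 0 had one in all 6, against 0.132% of all protein-coding genes. Peaks in 4 lists were the most frequent case, with 16 genes, against 23.1% of all protein-coding genes. Peaks in 3 lists followed with 13, against 40.9%, which was the most frequent case over all protein-coding genes. No peak in any list was seen at 7.34% of all genes. Psmc3 and Psmb3 had peaks in 5 lists, against 3.82% of all genes with 5 or 6; Psmc3 lacked Panx2 replicate 1, and Psmb3 lacked Polr1c replicate 1. At the other end were Psmb11, the thymus-specific beta subunit gene, and Psmd5, a chaperone gene for assembly of the regulatory particle, each with a peak in Mgea5 replicate 2 only (folds 1.60 and 1.92). Peaks in a single list were seen at 8.05% of all genes.

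Polr1c had the highest deposited folds at proteasome genes, at 2 loci. Its lists are narrow and those of Mgea5 and Panx2 broad, so folds are not directly comparable between them. The median fold of a list was 3.05 and 2.752 for Polr1c, in replicates 1 and 2. It was 1.712 and 1.707 for Mgea5, and 1.805 and 1.838 for Panx2. Psma3, an alpha subunit gene (chromosome 12, 70969283 to 70995877), and Psmc3, an ATPase gene (chromosome 2, 91054016 to 91059438), had Polr1c peaks in both replicates, which is 2 of 39 genes (5.13%), against a background of 0.521% of all protein-coding genes. Their folds were 6.53 and 6.45 at Psma3 and 6.82 and 5.72 at Psmc3, in replicates 1 and 2. These were ordinary values among the 114 genes so marked, where the geometric mean folds of 6.49 and 6.25 held ranks 51 and 52. At both genes the q was at most 0.01 in both replicates, against 0.334% of all genes, and against 0.384% in replicate 1 alone.

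The sites at the 2 genes lay differently. At Psma3 the peaks spanned 70968917 to 70969257 in replicate 1 (−log10 q of 5.24) and 70968976 to 70969270 in replicate 2 (10.3), just outside the low-coordinate end of the gene. Both covered n-TKctt17 (70969120 to 70969192), an annotated tRNA gene, a class transcribed by RNA polymerase III. The start that the promoter table gives for Psma3 lies 5340 bp inside the gene, with the peak centres at -5536 and -5500 bp from it. Replicate 2 had a further Polr1c peak just past that start, at 70974758 to 70975118 with a fold of 4.02, which lies outside the windows at the gene ends. At Psmc3 the peaks spanned 91054005 to 91054383 (−log10 q of 6.28) and 91053956 to 91054443 (29.9), across the low-coordinate end of the gene and into it. No annotated tRNA gene was overlapped there. Both peaks also overlapped the end of Gm13778, a locus of RefSeq type other (91031798 to 91054009), so the site cannot be assigned to Psmc3 alone. Without peaks within 200 bp of a tRNA gene, Psmc3 was the 1 proteasome gene left with Polr1c in both replicates, against 0.434% of all genes; this setting was chosen after the data were seen.

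**Figure D2:**
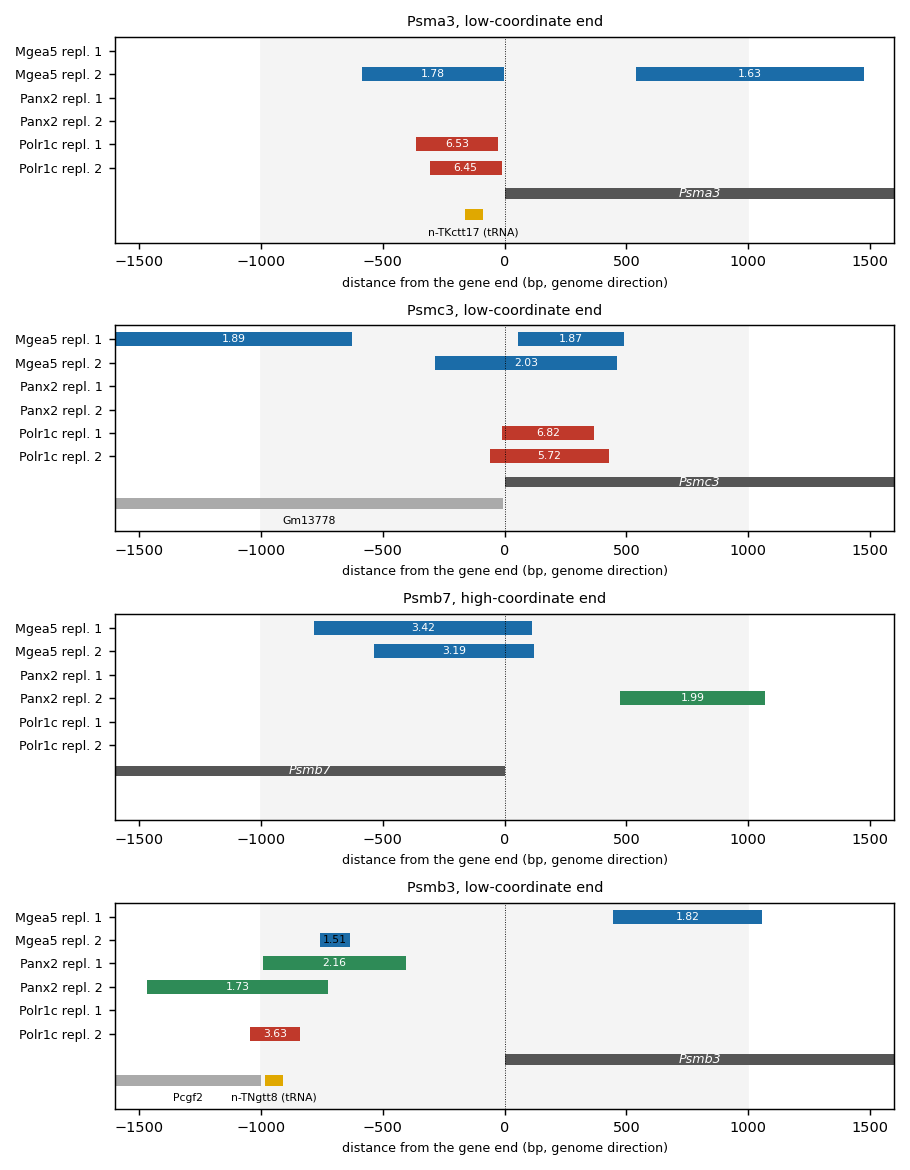
Peaks of the 6 lists (bars, labelled with their fold) around one end of Psma3, Psmc3, Psmb7 and Psmb3, by distance from the gene end in bp; the shaded band is the 1000 bp window, dark bars are the named gene and the lower track shows neighbouring genes, tRNA genes in yellow. Polr1c peaks cover the tRNA gene n-TKctt17 at Psma3 and, in replicate 2, n-TNgtt8 at Psmb3. At Psmc3 they lie across the gene's own end and the adjoining end of Gm13778.

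The longer Polr1c list of replicate 2 added 7 genes, which makes 9 of 39 (23.1%), against 17.5% of all genes. Psmb3, a beta subunit gene, had the highest fold of the 7, at 3.63 with a −log10 q of 5.02, at 97702389 to 97702593 of chromosome 11. With Psma3 and Psmc3 it was one of 3 proteasome genes at a q of at most 0.01 in replicate 2, against 2.22% of all genes. Its peak covered the tRNA gene n-TNgtt8 (97702449 to 97702522), which lies between Psmb3 and Pcgf2, a Polycomb gene. The peak also overlapped the end of Pcgf2, at 97702434. Psmd14, the gene of the deubiquitinase that removes the ubiquitin chain, followed with 2.97, and Psmd11, a gene of the lid of the regulatory particle, with 2.75 at its far end. Psmc5, an ATPase gene, had 2.65 at a site beyond its high-coordinate end and inside Smarcd2, a chromatin remodelling gene, and the alpha subunit genes Psma5 and Psma4 had 2.47 and 2.25. Psmd8, a lid gene, had 2.43 inside its low-coordinate end, which faces Ggn, a gene known from male germ cells. For these 6 the −log10 q was at most 0.570, and replicate 1 had no peak at any of the 7.

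The positions of the Polr1c replicate 2 peaks at the start end of genes with a known strand differed. The strongest, at Psma3 and Psmb3, lay outside the gene over tRNA genes, at -5500 and -943 bp from the annotated start. Inside the gene, peak centres were 149 bp downstream of the annotated start at Psma4, 244 bp at Psmd11, 294 bp at Psmd14 and 500 bp at Psma5. The Psma4 start lies beside another annotated protein-coding gene, AY074887 (54950244 to 54950954), which the peak also overlapped, and Hykk, a kinase gene, ends nearby. Coverage by replicate 2 peaks was highest at 200 bp past the start, at 4 of the 32 proteasome genes with an annotated start (12.5%). All protein-coding genes with one stood at 4.18% there. The 4 genes were Psma3, Psma4, Psmd11 and Psmd14. The share was 3.12% at 100 bp (against 3.77%), 9.38% at 300 bp (against 3.85%) and 3.12% at 500 bp (against 2.93%). At the start itself 0 of 32 were covered, against 2.78%. The peaks at 149, 500, 244 and 294 bp (Psma4, Psma5, Psmd11 and Psmd14) each overlapped a Panx2 replicate 2 peak and a Mgea5 replicate 1 peak. At Psma5, Psmd11 and Psmd14 they overlapped a Mgea5 replicate 2 peak as well. A further Psmd11 peak, centred at 662 bp, overlapped none of Mgea5 replicate 2. Such peaks are frequent near starts. At 200 bp past the start, Panx2 replicate 2 covered 49.0% of all genes, Mgea5 replicate 1 36.8% and Mgea5 replicate 2 13.2%. The Psmc3 site overlapped Mgea5 peaks of both replicates (folds 1.87 and 2.03) and no Panx2 peak. The Psma3 site overlapped a Mgea5 peak of replicate 2 only (1.78). The Psmb3 site over the tRNA gene overlapped Panx2 peaks of both replicates (2.16 and 1.73) and no Mgea5 peak.

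Mgea5 peaks were listed at the ends of most proteasome genes. Of these peaks, 58 of 71 in replicate 1 and 54 of 63 in replicate 2 had a deposited −log10 q of 0. Both replicates had a listed Mgea5 peak at 30 of 39 genes (76.9%), against a background of 64.3% of all protein-coding genes. They were 14 of 19 core genes and 16 of 20 regulatory particle genes. The folds at these 30 genes were close to those of other genes, with a median geometric mean of 1.78, against 1.77 over the 14080 genes with Mgea5 in both replicates. In each list alone the median highest fold was 1.83 and 1.75 at proteasome genes with a peak, against 1.78 and 1.73 at all genes with one.

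Psmb7, the gene of the beta subunit with trypsin-like activity (chromosome 2, 38588046 to 38643952), was the exception. Its Mgea5 folds were 3.42 and 3.19, with a −log10 q of 4.98 and 3.83, and its geometric mean fold of 3.30 ranked 11 of 14080. It was the 1 proteasome gene with a Mgea5 peak of q at most 0.01 in both replicates (2.56%), against 0.251% of all genes. No other proteasome gene reached that q in replicate 1 or in replicate 2, against 0.388% and 0.452% of all genes. The peaks spanned 38643171 to 38644063 and 38643415 to 38644074, across the high-coordinate end of the gene, with no other annotated gene within 1000 bp. A Panx2 peak of replicate 2 (1.99) lay beyond them. The opposite end, which faces the kinase gene Nek6, had a Mgea5 peak in replicate 2 only (1.49) and Panx2 peaks in both replicates (1.96 and 1.77). No Polr1c peak lay at either end of Psmb7.

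The other 29 genes with both replicates lay between geometric mean folds of 1.64 and 1.98. Highest among them were Psmc2 (1.84 and 2.14), Psmd1 (1.94 and 2.01), Psmc3 (1.89 and 2.03), Psmb2 (2.12 and 1.75) and Psmb1 (1.95 and 1.91). Psmb1 and Psmb2 encode beta subunits without catalytic sites. Lower values were found at the alpha subunit gene Psma1 (1.75 and 1.62), the ATPase gene Psmc4 (1.74 and 1.76) and the lid gene Psmd3 (1.79 and 1.74). The lowest were Psmc6 (1.71 and 1.58) and Psmc5 (1.69 and 1.61). With peaks of a −log10 p of at least 2 only, 5 genes remained with both replicates, against 2.8% of all genes: Psma7, Psmb1, Psmb7, Psmc3 and Psmd6, which is 12.8% of the 39. A fold of at least 2 in both replicates was reached by Psmb7 alone, against 1.79%. When the peaks of the replicates had to overlap each other, 23 of 39 counted (59.0%), against 43.6%.

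By role, all 6 ATPase genes had Mgea5 in both replicates, as did 9 of 11 other regulatory subunit genes, 8 of 11 beta genes and 6 of 8 alpha genes, beside the 64.3% of all genes. Of the 3 genes of assembly chaperones of the regulatory particle (Psmd5, Psmd9 and Psmd10), Psmd9 had both (1.77 and 1.79), and the other two had replicate 2 only. Mgea5 replicate 1 only was found at 4 genes, Psmb8, Psmb10, Psmd4 and Psmd12, against 16.9% of all genes. Replicate 2 only was found at 5, Psma3, Psma8, Psmb11, Psmd5 and Psmd10, against 6.83%. Psmb8 and Psmb10 encode subunits of the immunoproteasome, the form with exchanged catalytic subunits. Psmb9, the other gene of that form, had both (1.94 and 1.62). Psma8 and Psmb11 are known from testis and thymus, and Psmd4 encodes a ubiquitin receptor. Groups of this size were described and not tested.

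**Figure D3:**
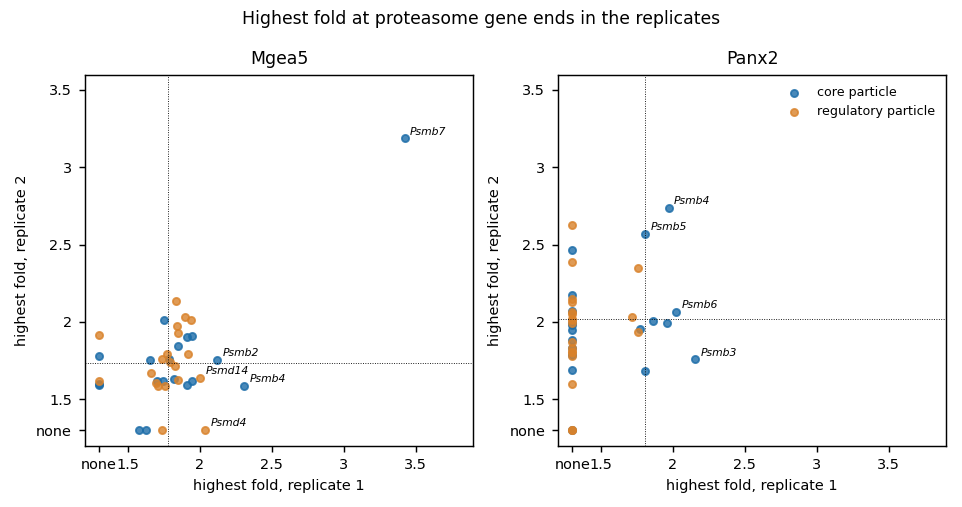
Highest Mgea5 fold (left) and Panx2 fold (right) at each proteasome gene in replicate 1 (horizontal axis) and replicate 2 (vertical axis), core genes in blue and regulatory particle genes in orange; points at none have no listed peak in that replicate, and dotted lines are the medians over all protein-coding genes with a peak. Psmb7 lies apart from the others for Mgea5, and for Panx2 most genes line the left edge, with no peak in replicate 1.

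Panx2 peaks of both replicates were at 11 of 39 proteasome genes (28.2%), against a background of 20.1%. Replicate 1 set this count, since its 11 genes all had a replicate 2 peak as well, while replicate 2 alone marked 36 of 39 (92.3%), against 82.1% of all genes. The core held 8 of the 11 (8 of 19 genes, 42.1%) and the regulatory particle 3 (3 of 20, 15.0%). Within the core they were 7 of 11 beta genes and 1 of 8 alpha genes, and none of the 6 ATPase genes was among them. The difference between the particles was not tested. In replicate 2 the counts were 18 of 19 core genes and 18 of 20 regulatory particle genes.

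The 7 beta genes were Psmb2, Psmb3, Psmb4, Psmb5, Psmb6, Psmb7 and Psmb9, which include the 3 genes of the constitutive catalytic subunits, Psmb5 (chymotrypsin-like), Psmb6 (caspase-like) and Psmb7. By geometric mean fold Psmb4 was highest, at 1.97 and 2.74 in replicates 1 and 2. Psmb5 followed with 1.81 and 2.57, then Psmb6 with 2.02 and 2.06 and, in the regulatory particle, Psmd1 with 1.76 and 2.35. In replicate 1 alone Psmb3 was highest, at 2.16, with a peak that covered the tRNA gene n-TNgtt8. Psmb4 ranked 132 of the 4401 genes with Panx2 in both replicates. The median geometric mean fold of the 11 genes was 1.95, against 1.93 over all 4401. Psmb6 was the 1 gene with a fold of at least 2 in both replicates, against 1.13% of all genes. All 12 replicate 1 peaks at proteasome genes had a deposited −log10 q of 0, and the highest in replicate 2 was 1.07, at Psmd11 (fold 2.63), so 0 of 39 genes reached a q of at most 0.01, against 0.247% of all genes in replicate 2. A −log10 p of at least 2 in both replicates was reached by 0, against 0.0183%. Peaks of the 2 replicates overlapped each other at 9 of the 39 genes (23.1%), against 9.15% of all genes. With windows of 2500 bp the Panx2 count was 18 (46.2%, against 38.6%), and with whole genes it was 26 (66.7%, against 57.1%).

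Mgea5 and Panx2 were found together in both replicates at 10 genes, Psmb2, Psmb3, Psmb4, Psmb5, Psmb6, Psmb7, Psmb9, Psmd1, Psmd6 and Psmd7, against 15.5% of all genes. Mgea5 in both replicates with Panx2 in replicate 2 was found at 29, against 60.3%. With a Polr1c replicate 2 peak besides, the count was 8, against 14.2%, and with all 3 proteins in both replicates it was 0, against 0.132%. Psma8 was the 1 gene with Panx2 in both replicates and Mgea5 in only 1. Psmc6, an ATPase gene, was the 1 gene with Mgea5 in both replicates and no Panx2 peak, against 2.9% of all genes. Psmb11, Psmc6 and Psmd5 had no Panx2 peak in either replicate, against 14.6% of all genes. Because Mgea5 and Panx2 peaks are so frequent at gene ends, joint presence within 1 kb does not show that they occupied the same site.

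**Figure D4:**
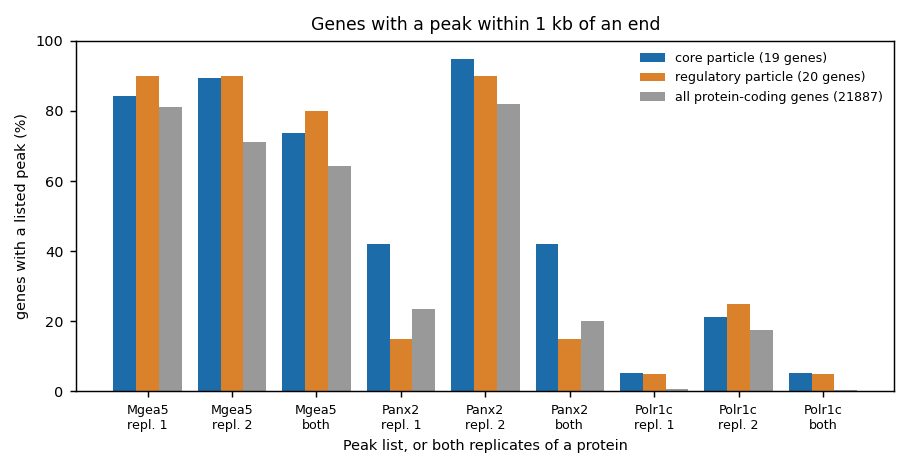
Share of genes with a listed peak within 1 kb of an end (vertical axis, percent) in each list and in both replicates of a protein, for the 19 core particle genes, the 20 regulatory particle genes and all 21887 protein-coding genes. The particles are close to each other for Mgea5 and Polr1c and apart for Panx2 replicate 1 (42.1% and 15.0%).

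Over all protein-coding genes, the share with peaks differed by chromosomal position. Psmb5, Psmb11 and Psmc6 lie on chromosome 14 beyond 45 Mb and Psmd10 on the X chromosome, where 16.3% of 1462 genes had Mgea5 peaks in both replicates and 0.889% had Panx2 peaks, against 67.8% and 21.5% of genes elsewhere. Of these 4 genes, Psmb5 had Mgea5 and Panx2 peaks in both replicates, Psmc6 had Mgea5 in both, and Psmb11 and Psmd10 had neither in both. Without the X chromosome and chromosome 14, Mgea5 in both replicates was found at 27 of 34 genes (13 of 17 core and 14 of 17 regulatory particle genes), against 67.8% of all genes left. Panx2 was found at 9 of 34 (7 of 17 core and 2 of 17 regulatory particle genes), against 21.2%. Gene size differed as well, with a median length of 12293 bp for proteasome genes and 17169 bp for all protein-coding genes. Another protein-coding gene ended within 1 kb at 12 of the 39 (30.8%, against 24.8%), with 8 of 19 core genes and 4 of 20 regulatory particle genes. The part of such neighbours in the Panx2 counts of the particles was not tested.

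Peak coverage was resolved by position for the 32 genes with an annotated start, using the most upstream one. Mgea5 replicate 1 peaks covered the start at 13 of 32 (40.6%, against 33.8% of 17492 genes) and were most frequent at 300 bp past it (50%, against 35.8%). At 2000 to 3000 bp away they covered a mean of 11.1%, against 15.9%. Mgea5 replicate 2 covered the start at 8 of 32 (25%, against 2455 of 17492 genes). At 2000 to 3000 bp away its mean was 13.5%, against 11.3%, so the 2 Mgea5 lists differed in direction there. Panx2 replicate 2 covered the start at 7 of 32 (21.9%, against 40.3%) and reached 50% at 300 bp past it, where all genes stood at 49.0%. Farther into the gene it stayed above all genes, with 46.9% at 1100 bp, against 27.3%. Its mean at 2000 to 3000 bp away was 21.3%, against 17.3%, while that of Panx2 replicate 1 was 1.42%, against 4.44%. With 32 genes, 1 gene is worth 3.12%, so single steps of the curve carry little weight. Within 1000 bp of the start end, 14 of 32 genes had Mgea5 in both replicates (43.8%, against 40.1%), and the same number had it at the opposite end (43.8%, against 36.5%). For Panx2 the counts were 5 at the start end (15.6%, against 9.32%) and 2 at the opposite end (6.25%, against 7.76%). For Polr1c they were 1, Psma3, at the start end (3.12%, against 0.446%), and 0 at the opposite end, against 0.0572%. Windows of 1000 bp were also set around every annotated start of a gene, not only the most upstream one. In these, 16 of 32 genes had Mgea5 in both replicates (50%, against 43.2%). Psma6 was counted through its second start, with folds of 2.72 and 1.83. Panx2 was found at 6 (18.8%, against 10.5%) and Polr1c at 0, against 0.469%.

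**Figure D5:**
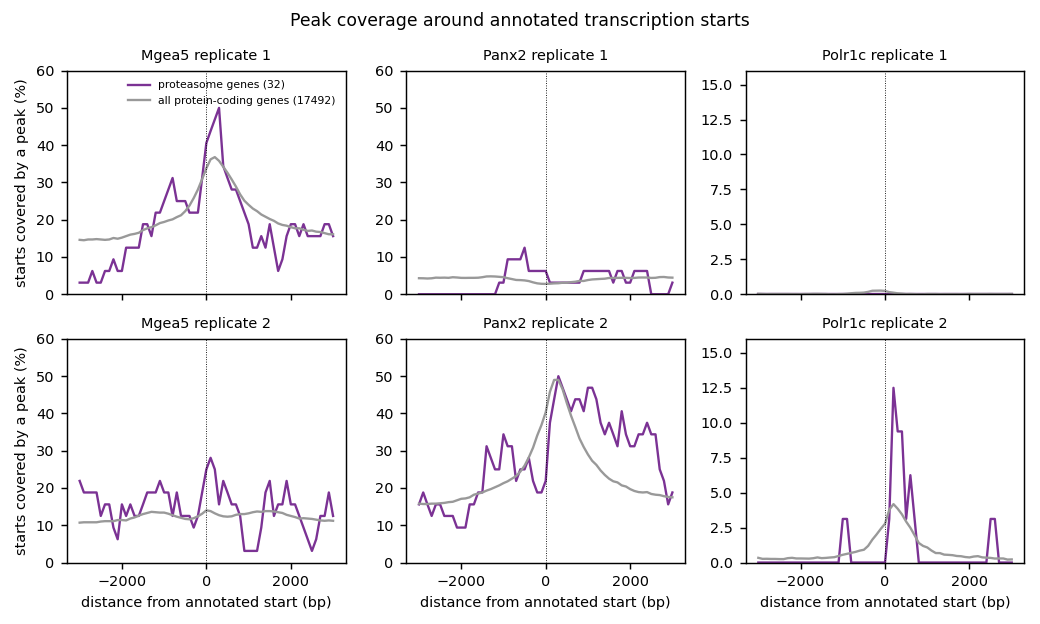
Share of annotated starts covered by a peak (vertical axis, percent) at each distance from the start in bp (horizontal axis, gene direction) in the 6 lists, for 32 proteasome genes and all 17492 protein-coding genes with a start. The Polr1c panels have a scale of their own, in which the replicate 2 curve of the proteasome genes has its highest point, 12.5%, at 200 bp past the start.

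Other genes of the proteasome pathway were taken from a list of activators, assembly factors, ubiquitin-processing partners and transcription factors, of which 23 were found. Mgea5 peaks in both replicates were at 20 of the 23, Panx2 peaks at 3 and Polr1c peaks at 0, against the same backgrounds of 64.3%, 20.1% and 0.521%. Psmg3 and Psmg1, genes of chaperones of core assembly, had the highest geometric mean folds for Mgea5 (2.02 and 2.21 at Psmg3, 2.31 and 1.93 at Psmg1). Psmg1 also had the highest geometric mean fold for Panx2 (1.96 and 2.88), followed by Usp14, a deubiquitinase gene of the proteasome (1.89 and 2.13). Polr1c replicate 2 peaks were at 3 of the 23 (13.0%), against 17.5% of all genes. They were at Nfe2l2 with a fold of 6.55 and a −log10 q of 20.1, at Ngly1, an enzyme gene needed to activate Nfe2l1, with 2.80, and at Usp14 with 2.45. The Nfe2l2 peak lay inside the gene, at -797 to -435 bp from its high-coordinate end, which is its start end, and replicate 1 had no peak there. It was the 1 gene of the 23 at a q of at most 0.01 in Polr1c replicate 2, against 2.22% of all genes.

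Psmc3ip had Mgea5 folds of 1.78 and 1.52, Panx2 folds of 1.78 and 1.72 and no Polr1c peak, so that with it 31 of 40 genes had Mgea5 and 12 of 40 had Panx2 in both replicates.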

How the data were processed

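ChIP-seq peak lists were deposited for 6 libraries, one list per replicate. Per the submitters' processing notes, Trim Galore, Bowtie2 2.3.5, MACS3 3.0.0a5 and mm10 were used; of the control, cut-offs and duplicate filters nothing is given in the sources used. Each peak line as deposited holds a score, a fold (ratio) over background, and a −log10 p and −log10 q; the score was not used. Read depth is unknown, so no interval is given. Mgea5 and Panx2 lists are broad and Polr1c lists narrow, by their deposited layout.

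Peaks on the main chromosomes were intersected with windows of 1000 bp around both gene ends, in Python 3.11.15 with pandas 2.3.3; the intersection was tested on simulated data. Counts in both replicates were set beside those of all protein-coding genes. Starts and strands came from RefSeq promoters. There was no test, since peak lists hold no counts per sample and the members and lists were chosen with earlier results of these data known. All 39 members are named; other genes are named only where they adjoin a member with Polr1c peaks or a q of at most 0.01, or by highest fold in the pathway list. Printed promoters were chosen by geometric mean fold.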

Additional observations from a re-analysis of the deposited data

How the results depend on the processing

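No paired analysis was possible because the results come from peak lists and from no test; replicate numbers were used only to name lists. Of the 39 genes, Mgea5 in both replicates was found at 30 genes, and at 5 with a −log10 p of at least 2. It was found at 1 with a −log10 q of at least 2 or a fold of at least 2. Within 1000 bp of any annotated start, it was found at 16 of 32 genes. Leaving out a replicate gave 34 to 35. Panx2 was found at 11, and at 0 with that p or q, at 1 with that fold, at 18 with windows of 2500 bp, at 6 of 32 around the start and at 26 over whole genes; leaving out a replicate gave 11 to 36. Polr1c was found at 2, at 0 of 32 around the start, since Psmc3 has none in the table and the Psma3 site lies far from its start, and at 1 without peaks near tRNA genes; leaving out a replicate gave 2 to 9. The other 29 of 43 such counts stayed within 1.5 times. The highest fold of a single gene moved by more than the SD of its replicates in 7 of 38 values with windows of 500 bp, 10 of 43 with 2500 bp, 18 of 43 with whole genes, 4 of 37 with 50% of the peak inside and 2 of 20 around the start. Weak peaks limit the Mgea5 and Panx2 counts: without depth or input, absence from a list is not absence of the protein.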
